A study of Mus musculus with 6 samples.

Results

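The genes described here encode the matrix metalloproteinases (Mmp), the ADAM and ADAMTS proteins, the ADAMTS-like proteins (Adamtsl) and the tissue inhibitors of metalloproteinases (Timp). Members were all protein-coding mouse genes whose symbol is Mmp, Adam, Adamts, Adamtsl or Timp followed by a number, and 83 of the 35856 genes in the files met this rule. They comprised 22 Mmp, 33 Adam, 19 Adamts, 5 Adamtsl and 4 Timp genes.

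RNA was sequenced in 6 mouse libraries from cultured cells of Mdm2 fl/fl p53-/- mice, so every group lacks p53. Mdm2 encodes the ubiquitin ligase that restrains p53. The labels name 3 cell types, a T cell lymphoma and a sarcoma in short-term culture and fibroblasts grown from ear punches, and each type has 1 library per arm, labelled as Mdm2 deletion or as vehicle control. The retrovirus used carried GFP either by itself or alongside CreERT2, a form of Cre that 4-hydroxytamoxifen switches on, and the labels do not say which virus a given library had received. The libraries labelled deleted received 4-hydroxytamoxifen, at 1 mM per the labels, and those labelled vehicle received ethanol, for 6 h (lymphoma) or 48 h (sarcoma and fibroblasts). Deletion and exposure to 4-hydroxytamoxifen therefore coincide and cannot be told apart. The labels do not say how many animals or tumors stand behind a library.

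MMPs are secreted or membrane-bound zinc proteinases that cut collagens and other matrix proteins and are made as inactive proenzymes. ADAMs sit in the membrane and release the outer parts of other membrane proteins, while ADAMTS proteinases are secreted and cut proteoglycans, procollagens and other matrix proteins. TIMPs bind the active site of these enzymes, and fibroblasts are a main source of both enzymes and inhibitors in connective tissue.

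Several checks of the labels bear on all results. Mdm2 RNA did not fall in labelled-deleted libraries (30.5, 31.1 and 31.1 CPM, counts scaled to library size, against 28.4, 28.0 and 28.5 in labelled-vehicle libraries, in the order fibroblasts, lymphoma, sarcoma, which is kept throughout). Among 11 T cell markers only Lck reached 1 CPM in any library, also in those labelled lymphoma, where the genes for the T cell receptor and CD3 chains stayed under 1 CPM. The summed T cell markers were 1.96 to 2.26 CPM (vehicle) and 3.76 to 4.80 CPM (deleted), and Lck, the 1 marker tested, was higher. Of 10 fibroblast and mesenchymal markers 9 reached 1 CPM, and their summed level was 18340 to 19201 CPM in labelled-vehicle libraries and 11050 to 11275 CPM in those labelled deleted. By the edgeR test used below, all 9 were lower in the libraries labelled deleted, against 24.6% of all genes tested. Of 14 macrophage markers 2 reached 1 CPM (Cd14 and Cd68), with sums of 26.6 to 28.5 CPM (vehicle) and 26.7 to 29.7 CPM (deleted). The summed epithelial markers were 9.05 to 10.1 CPM (vehicle) and 23.7 to 25.8 CPM (deleted), and the summed endothelial markers 0.574 to 0.717 CPM (vehicle) and 1.70 to 2.24 CPM (deleted). Only 2 of 6 epithelial markers and 0 of 6 endothelial markers reached 1 CPM in any library. The summed muscle and cartilage markers were 16.9 to 18.4 CPM (vehicle) and 22.2 to 23.6 CPM (deleted), and the summed neutrophil markers 1.96 to 2.49 CPM (vehicle) and 2.06 to 2.41 CPM (deleted). In each of these lists 2 of 8 markers reached 1 CPM. Groups are for these reasons called libraries labelled deleted or labelled vehicle, the part of these marker differences in the results below was not tested, and in bulk RNA a smaller share of a cell type and less RNA per cell cannot be told apart. Libraries held 26243064 to 37517726 estimated counts, and a count of 0 allows up to 3 counts, or 0.0797 to 0.113 CPM, counting error only.

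Promoters of 3 Mmp genes that rose strongly are shown first, because they carry the same pair of motifs, with that of Adamts1, the most abundant Adamts gene, beside them. The stretches are from RefSeq (GRCm38.p6), written 5′ to 3′ on the strand of the gene. Capitals mark matches to the AP-1 motif TGANTCA, bound by Fos and Jun proteins, and to the TATA box TATAAA. The first 3 stretches belong to Mmp genes that were higher in labelled-deleted libraries, at chr9:7445712-7445821 (plus strand), chr9:7502232-7502341 (plus strand) and chr9:7272404-7272513 (plus strand). The last belongs to Adamts1, which was lower, at chr16:85803114-85803223 (minus strand).
Mmp3: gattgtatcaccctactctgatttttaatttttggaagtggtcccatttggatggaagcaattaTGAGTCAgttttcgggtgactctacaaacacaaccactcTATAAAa
Mmp10: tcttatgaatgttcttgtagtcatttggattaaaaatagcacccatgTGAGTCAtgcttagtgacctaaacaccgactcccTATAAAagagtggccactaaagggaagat
Mmp13: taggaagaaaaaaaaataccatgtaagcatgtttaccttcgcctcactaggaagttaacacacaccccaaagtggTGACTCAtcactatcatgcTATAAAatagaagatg
Adamts1: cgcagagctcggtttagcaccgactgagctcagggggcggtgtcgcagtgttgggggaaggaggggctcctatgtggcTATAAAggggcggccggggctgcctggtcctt

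The comparison of the libraries labelled deleted with those labelled vehicle addresses how expression differs after the labelled loss of Mdm2 in cells without p53. The stromelysin genes Mmp3 and Mmp10 and the collagenase gene Mmp13 rose, and the gelatinase gene Mmp9 rose less. Among the ADAMTS genes, Adamts1, Adamts12, Adamts15, Adamts10 and Adamts5 fell while Adamts9, Adamts6 and Adamts7 rose. The inhibitor genes Timp1 and Timp2 rose by smaller amounts, and Adam33 and Mmp16 fell. The most abundant enzyme genes, Mmp2, Mmp14 and Adam9, did not pass the test.

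Of the 83 members, 46 had enough counts to be tested. At an edgeR adjusted p under 0.05, 14 were higher and 18 lower, and 14 did not pass. Over all 15933 genes tested, 25% were called higher and 24.6% lower. In 35 of the 46 members the 3 libraries of one arm did not overlap with the 3 of the other, against 55.5% of all genes. The median log2 fold change was -0.02 among members and 0.02 among all genes, and the median absolute log2 fold change was 0.52 and 0.22. At least 2-fold shared changes were found in 8 members called higher and 6 called lower of 46, against 4.77% and 1.41% of all genes. Enough counts in 1 arm sufficed for testing. Among these members, Adam30 was scarce in the libraries labelled vehicle, and Adam12 and Adamts15 in those labelled deleted. All 32 called members moved the same way in each of the 3 labelled pairs, but the calls were made on these same pairs, which favors such agreement. Of the 46 tested members, called or not, 39 had the same sign in all 3 pairs. That share was not counted over all genes, so 39 of 46 is not read as a trait of the members. By family, 5 Mmp genes were higher and 4 lower of 13 tested, 4 Adam genes higher and 6 lower of 15, 3 Adamts genes higher and 7 lower of 12, 0 Adamtsl genes higher and 1 lower of 3, and 2 Timp genes higher and 0 lower of 3.

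**Figure D1:**
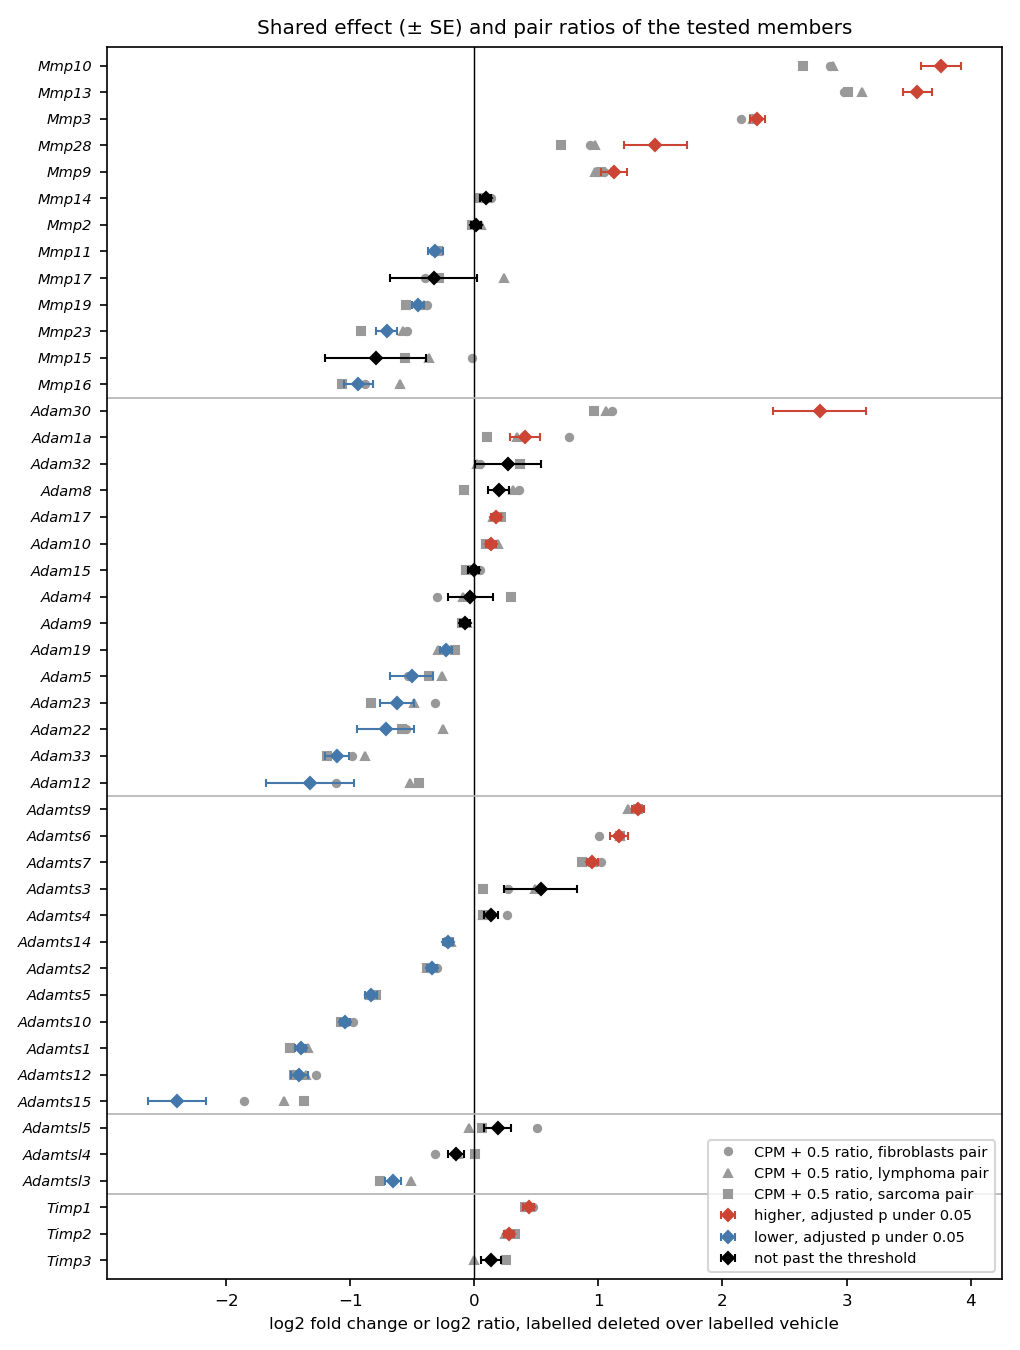
Log2 fold change shared by the 3 labelled pairs (diamonds, with its SE) and log2 ratio of CPM + 0.5 within each pair (grey symbols) for the 46 tested members, libraries labelled deleted over vehicle, grouped by family. The Mmp family spans -0.94 (Mmp16) to 3.76 (Mmp10), and the pair ratios of scarce genes lie nearer to 0 because of the added 0.5.

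Levels were compared between genes on a length-scaled measure, TPM, summed over transcript targets of at least 500 bases. Mmp2, the gelatinase of connective tissue, had the highest mean of the Mmp family at 90.1 TPM, followed by Mmp14, the membrane-type enzyme that activates pro-MMP2, at 68.4 TPM. Together they held 80.0% of the summed Mmp level. Adam9 led the Adam family (56.3 TPM) ahead of Adam15 (25.0 TPM), and Adamts1 led the Adamts family (29.1 TPM) ahead of Adamts10 (16.2 TPM). Timp2 (134 TPM) and Timp1 (107 TPM) held 96.3% of the Timp level. Of the 83 members, 38 had a mean of at least 1 CPM, and 16 had a count of 0 in every library: Adam2, Adam6a, Adam6b, Adam7, Adam20, Adam24, Adam25, Adam26a, Adam26b, Adam29, Adam34, Adam39, Adamts19, Mmp7, Mmp8 and Mmp20.

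**Figure D2:**
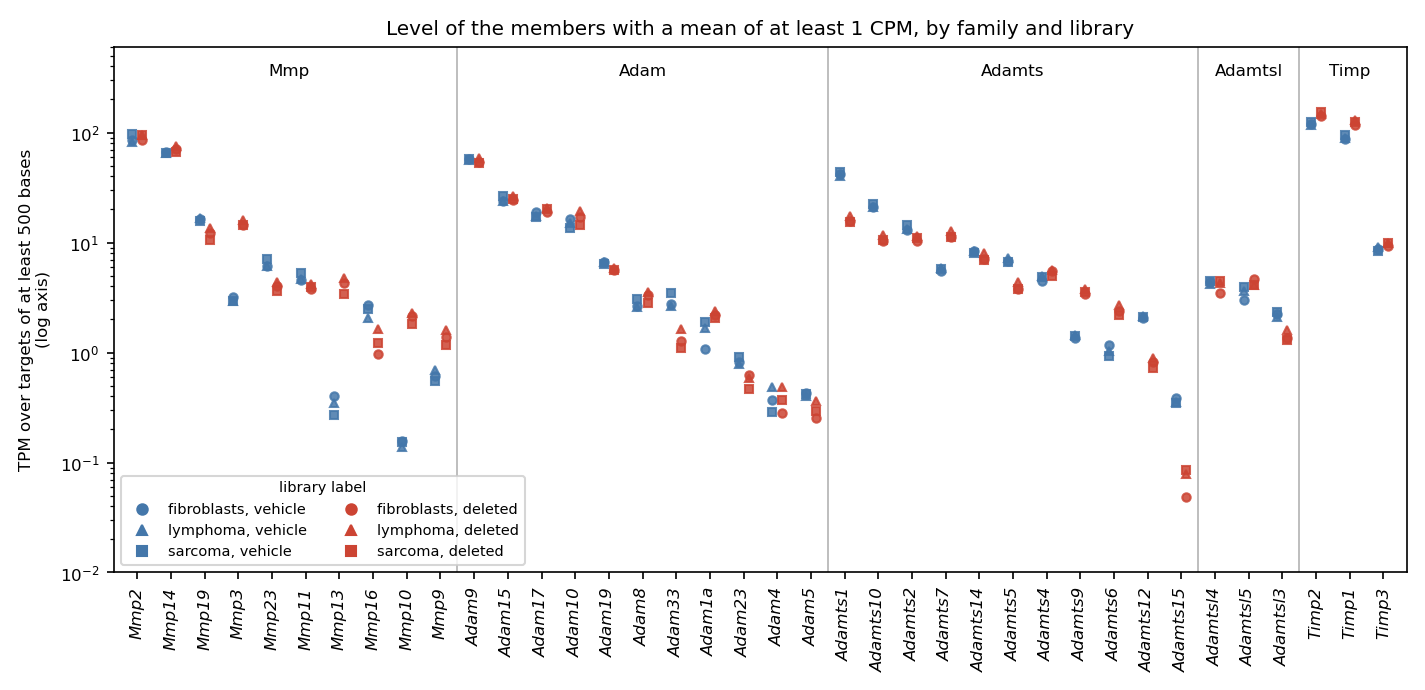
TPM (log axis) of the 38 members with a mean of at least 1 CPM in each library, by family, with libraries labelled vehicle in blue and labelled deleted in red. Mmp2, Mmp14, Adam9, Timp1 and Timp2 lie near the top in every library, while Mmp3, Mmp10 and Mmp13 separate by arm.

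Stromelysins cut proteoglycans, laminin and fibronectin and activate other proMMPs. Mmp3 (stromelysin 1, chr9:7445822-7455975) stood at 43.9, 43.3 and 43.4 CPM in labelled-deleted libraries and at 9.48, 8.71 and 8.68 CPM in those labelled vehicle. The arms lay far apart and the 3 libraries of each arm close together, with means of 43.5 ± 0.316 and 8.96 ± 0.453 CPM (SD, n = 3). The shared log2 fold change of Mmp3 was 2.28 ± 0.06 (SE), with an edgeR adjusted p of 4.07e-11. Within pairs its ratio was 4.63, 4.97 and 5.001.

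Mmp10 (stromelysin 2, chr9:7502352-7510240) lies 46.4 kb from Mmp3, with Mmp1a between them. It stood at 6.48, 6.20 and 5.45 CPM in labelled-deleted libraries and at 0.456, 0.405 and 0.451 CPM in those labelled vehicle. Every library labelled vehicle was low, with 13, 12 and 17 counts. The log2 fold change was 3.76 ± 0.16 (edgeR adjusted p of 5.85e-09), the largest rise among the tested members, and the ratio within pairs was 14.2 (95% counting interval 8.11 to 27.2), 15.3 (8.53 to 30.2) and 12.1 (7.30 to 21.3). Mmp11, stromelysin 3, which lies elsewhere in the genome and is activated inside the cell by furin, was lower by comparison (log2 fold change -0.31 ± 0.06, edgeR adjusted p of 0.0011), a call that limma on TPM did not give.

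Mmp13 (chr9:7272514-7283331) encodes collagenase 3, the main interstitial collagenase of the mouse. Its level was 12.6, 12.7 and 9.97 CPM in labelled-deleted libraries and 1.16, 1.01 and 0.797 CPM in those labelled vehicle. The pair labelled sarcoma was the lowest in both arms, and the arms did not overlap. The log2 fold change of Mmp13 was 3.57 ± 0.12 (edgeR adjusted p of 4.21e-10), and the ratio within pairs 10.9, 12.5 and 12.5. The other collagenase genes were near or at 0. Mmp1a, listed by GENCODE M21 as a polymorphic pseudogene and therefore no member, had 1 count over all 6 libraries. Mmp1b was at 5 counts in the library labelled fibroblasts deleted and at 0 in the other 5 libraries, and Mmp8 at 0 in all 6.

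Mmp3, Mmp10 and Mmp13 lie in 1 cluster of Mmp genes on chromosome 9 (chr9:7272514-7699585, GRCm38), which holds 9 protein-coding members: Mmp13, Mmp12, Mmp1b, Mmp3, Mmp10, Mmp8, Mmp27, Mmp20 and Mmp7. All 3 tested members of the cluster were higher, against 25% of all genes tested, and the other members of the cluster were not tested. Mmp27 had 9, 9 and 10 counts in labelled-deleted libraries and 1, 3 and 6 in those labelled vehicle, and was not tested. Mmp12, the macrophage elastase, had at most 3 counts in any library. Of the 10 tested Mmp genes outside the cluster, 2 were higher and 4 lower, against 25% and 24.6% of all genes. Their median log2 fold change was -0.32.

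The gelatinases cut denatured collagen and basement membrane collagen. Mmp9 (gelatinase B) stood at 6.68, 7.03 and 5.78 CPM in labelled-deleted libraries and at 2.98, 3.34 and 2.60 CPM in those labelled vehicle. The arms did not overlap, and the log2 fold change was 1.13 ± 0.11 (edgeR adjusted p of 5.11e-06). Neutrophils and macrophages are known for Mmp9, and the summed neutrophil and macrophage markers overlapped between the arms. Of 5 tested macrophage markers 3 were higher and 1 lower, and of 2 tested neutrophil markers 0 were higher and 1 lower. Of all genes tested, 25% were higher and 24.6% lower. The part of these markers in the Mmp9 result was not tested. Mmp2 (gelatinase A) stood at 385, 389 and 432 CPM in labelled-deleted libraries and at 384, 375 and 437 CPM in those labelled vehicle. Here the arms overlapped, both sarcoma-labelled libraries were the highest of their arm, and the log2 fold change of 0.01 ± 0.04 did not pass the test (edgeR adjusted p of 0.822).

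Membrane-type MMPs act at the cell surface. Mmp14 stood at 269, 258 and 253 CPM in labelled-deleted libraries and at 245, 240.5 and 246 CPM in those labelled vehicle. Its arms did not overlap but the gap was small, with a log2 fold change of 0.09 ± 0.04 (edgeR adjusted p of 0.0972). With protein-coding genes only, Mmp14 passed the test (0.11, edgeR adjusted p of 0.0190). Mmp16 fell, from 7.37, 6.68 and 7.83 CPM in labelled-vehicle libraries to 3.77, 4.25 and 3.47 CPM in those labelled deleted. The log2 fold change of Mmp16 was -0.94 ± 0.12 (edgeR adjusted p of 4.47e-05). Mmp15 (-0.80 ± 0.41) and Mmp17 (-0.33 ± 0.35) lay under 1 CPM and did not pass. Of the remaining Mmp genes, Mmp19 (-0.45 ± 0.05) and Mmp23 (-0.71 ± 0.09) fell, and Mmp28, epilysin, rose by 1.46 ± 0.25 from 11 to 18 counts per library labelled vehicle to 30 to 35 counts per library labelled deleted.

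**Figure D3:**
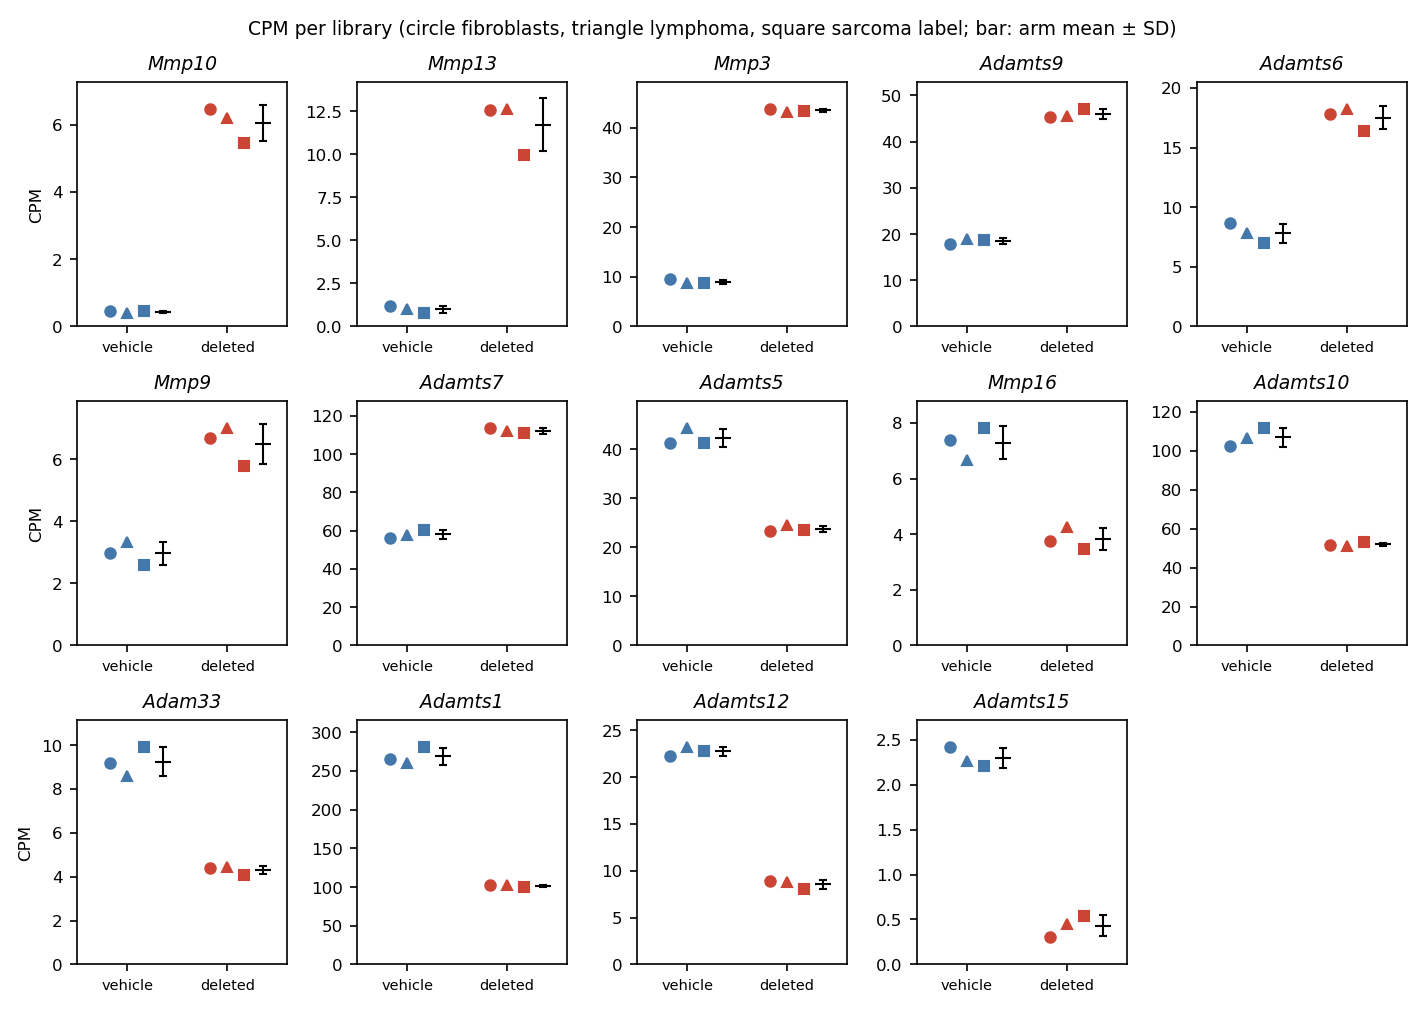
CPM per library for the 14 members with a mean of at least 1 CPM that passed the test with an absolute log2 fold change of at least 0.8, on linear axes from 0, with the mean and SD of each arm (n = 3). In each panel the libraries of the 2 arms are separated, and the symbols of the 3 cell type labels lie close together within an arm.

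The hyalectanases are ADAMTS enzymes that cut the large proteoglycans aggrecan and versican. Of 5 tested, 3 were lower and 1 higher, against 24.6% and 25% of all genes. Adamts1 (chr16:85793827-85803113) stood at 103, 102 and 100.3 CPM in labelled-deleted libraries and at 265, 261 and 281 CPM in those labelled vehicle. The 3 libraries labelled deleted differed by little, and all lay below every library labelled vehicle. Its log2 fold change was -1.40 ± 0.05 (edgeR adjusted p of 4.14e-10).

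Adamts5, the major aggrecanase of mouse cartilage, lies 53.1 kb from Adamts1 on chromosome 16. It stood at 23.3, 24.5 and 23.6 CPM in labelled-deleted libraries and at 41.4, 44.4 and 41.3 CPM in those labelled vehicle, a fall with a log2 fold change of -0.83 ± 0.05 (edgeR adjusted p of 8.47e-08). Adamts15 fell to 0.305, 0.451 and 0.542 CPM from 2.42, 2.26 and 2.20 CPM, or to 9, 12 and 15 counts from 69, 67 and 83. Its log2 fold change was -2.40 ± 0.23 (edgeR adjusted p of 6.80e-06), the largest fall among the tested members. Adamts8, 20.1 kb away on chromosome 9, was not tested and had 10, 10 and 8 counts in labelled-deleted libraries and 0, 3 and 0 in those labelled vehicle.

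Adamts9, which cuts versican, moved the other way. It stood at 45.2, 45.6 and 47.1 CPM in labelled-deleted libraries and at 17.8, 19.0 and 18.6 CPM in those labelled vehicle. The ratio within pairs was 2.55, 2.40 and 2.53, and the log2 fold change was 1.32 ± 0.05 (edgeR adjusted p of 1.86e-09). Adamts4, another aggrecanase, did not pass (0.13 ± 0.06, edgeR adjusted p of 0.0770), though it did with protein-coding genes only (0.15, edgeR adjusted p of 0.0352).

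Among the other ADAMTS genes, Adamts10 and Adamts6 encode related proteins that bind fibrillin microfibrils, and they moved in opposite directions. Adamts10 stood at 51.6, 51.3 and 53.0 CPM in labelled-deleted libraries and at 102, 107 and 112 CPM in those labelled vehicle (log2 fold change -1.04 ± 0.04, edgeR adjusted p of 2.59e-09). Adamts6 stood at 17.8, 18.3 and 16.4 CPM against 8.64, 7.80 and 7.01 CPM (1.17 ± 0.07, edgeR adjusted p of 1.45e-07). Neither gene had overlapping arms.

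Adamts7 and Adamts12 form another related pair, both able to cut cartilage oligomeric matrix protein, and they also moved in opposite directions. Adamts7 stood at 114, 112 and 111 CPM in labelled-deleted libraries and at 56.0, 57.6 and 60.5 CPM in those labelled vehicle (log2 fold change 0.95 ± 0.04, edgeR adjusted p of 9.38e-09). Adamts12 stood at 8.92, 8.79 and 8.02 CPM against 22.3, 23.3 and 22.8 CPM (-1.41 ± 0.07, edgeR adjusted p of 1.38e-08). The coding sequence of Adamts7 overlaps that of Tbc1d2b on the opposite strand, which stood at 76.5 CPM and was itself higher (log2 fold change 0.49). The sources used here give no strand setting for the counting.

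The procollagen N-propeptidases remove the amino-terminal propeptide of fibrillar procollagens. Adamts2 (-0.34 ± 0.04) and Adamts14 (-0.21 ± 0.04) fell. limma on log2(TPM + 1) did not give either call (limma adjusted p of 0.0528 and 0.231), nor did limma on log2(TPM + 0.1) give that of Adamts14 (0.222). Adamts3 (0.53 ± 0.29) lay under 1 CPM and did not pass (edgeR adjusted p of 0.152). Their substrate genes Col3a1 (-1.33), Col1a1 (-0.61) and Col1a2 (-0.57) were lower, while Col2a1, another fibrillar procollagen gene, was higher (2.47).

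The ADAMTS-like proteins lack the proteinase domain and bind matrix. Adamtsl3 fell by 0.66 ± 0.06 on the log2 scale (edgeR adjusted p of 7.01e-06). Adamtsl4, the most abundant of its family, stood at 24.3, 26.8 and 31.2 CPM in labelled-deleted libraries and at 30.4, 29.4 and 31.2 CPM in those labelled vehicle. The arms overlapped and the log2 fold change of -0.15 ± 0.06 did not pass (edgeR adjusted p of 0.0800), though it did without the pair labelled sarcoma (-0.23, edgeR adjusted p of 0.0185) and with no low count filter (-0.17, edgeR adjusted p of 0.0184). Adamtsl5 stood at 9.40, 7.18 and 8.31 CPM against 6.46, 7.39 and 7.94 CPM and did not pass (0.19 ± 0.11, edgeR adjusted p of 0.179). Its ratio was 1.45 in the pair labelled fibroblasts and 0.971 and 1.05 in those labelled lymphoma and sarcoma.

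ADAM10 and ADAM17 are the main sheddases of the cell surface. ADAM10 makes the first membrane cut of Notch receptors, and ADAM17 releases TNF and ligands of the EGF receptor. Adam17 stood at 108, 102 and 110.5 CPM in labelled-deleted libraries and at 96.0, 91.8 and 95.4 CPM in those labelled vehicle. Its arms did not overlap, with a log2 fold change of 0.18 ± 0.04 (edgeR adjusted p of 0.00334), a call that limma on log2(TPM + 1) and log2(TPM + 0.1) did not give (limma adjusted p of 0.0684 and 0.0633). Adam10 had overlapping arms (means 79.2 ± 7.80 and 72.0 ± 5.50 CPM, SD, n = 3) and a log2 fold change of 0.14 ± 0.04 (edgeR adjusted p of 0.0169). This call was lost under 7 of the alternatives, among them leaving out the pair labelled fibroblasts (0.12, edgeR adjusted p of 0.0559) or lymphoma (0.11, edgeR adjusted p of 0.155).

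Adam9, a membrane proteinase of many cell types, stood at 310.1, 309 and 307 CPM in labelled-deleted libraries and at 326, 321 and 329 CPM in those labelled vehicle. The arms did not overlap but differed little, and the log2 fold change of -0.08 ± 0.04 did not pass (edgeR adjusted p of 0.138). Adam15 did not pass either (-0.01 ± 0.04). Adam8, known from leukocytes, was higher in the pairs labelled fibroblasts and lymphoma and not in the pair labelled sarcoma. It did not pass over all 6 libraries (0.20 ± 0.09, edgeR adjusted p of 0.0780) and passed without the pair labelled sarcoma (0.34, edgeR adjusted p of 0.0037), with protein-coding genes only (0.21, edgeR adjusted p of 0.0446) and with limma on TPM (limma adjusted p of 0.0475 and 0.0432).

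Adam33, an ADAM of mesenchymal cells, fell. It stood at 4.38, 4.43 and 4.08 CPM in labelled-deleted libraries and at 9.16, 8.61 and 9.93 CPM in those labelled vehicle, with a log2 fold change of -1.10 ± 0.10 (edgeR adjusted p of 3.05e-06). Adam19, meltrin beta, fell by 0.23 ± 0.05 on the log2 scale, a call that limma on TPM did not give (limma adjusted p of 0.182 and 0.178). Adam12, meltrin alpha, fell as well (-1.32 ± 0.35, edgeR adjusted p of 0.0089) but rested on 4, 11 and 12 counts against 25, 24 and 29, and did not pass with DESeq2 (adjusted p of 0.0776).

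Adam22 and Adam23 have no catalytic zinc site and bind LGI proteins in the nervous system. Both fell, Adam23 by 0.62 ± 0.14 and Adam22, at 18 to 46 counts per library, by 0.72 ± 0.23 on the log2 scale. The call of Adam22 ended without the pair labelled fibroblasts (edgeR adjusted p of 0.0758) or sarcoma (0.110), with DESeq2 (0.256) and with limma on TPM (0.204 and 0.214).

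The other tested Adam genes are known mainly from testis. Adam30 rose by 2.78 ± 0.38 on the log2 scale (edgeR adjusted p of 8.90e-05), from 4, 4 and 2 counts in labelled-vehicle libraries to 26, 22 and 16 in those labelled deleted. At these counts the pair labelled sarcoma had a ratio of 10.9 with a 95% counting interval of 2.56 to 97.6. Adam1a rose (0.41 ± 0.12, edgeR adjusted p of 0.0154), with a ratio of 1.77 in the pair labelled fibroblasts, 1.29 in lymphoma and 1.08 in sarcoma. Without the pair labelled fibroblasts its log2 fold change was 0.21 and did not pass (edgeR adjusted p of 0.148), nor did it with DESeq2 (0.0770) or limma on TPM (0.0659 and 0.0712). Adam1a shares coding sequence on the same strand with Mapkapk5 transcripts. Adam5 fell (-0.51 ± 0.18, edgeR adjusted p of 0.0320), a call lost without any 1 of the 3 pairs (edgeR adjusted p of 0.0533 to 0.138), with DESeq2 (0.299) and with limma on TPM (0.121 and 0.124). Adam4 and Adam32 did not pass.

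TIMP1 and TIMP2 inhibit most MMPs, and TIMP2 also takes part in the activation of pro-MMP2 by MMP14. Timp1 stood at 126, 125 and 132 CPM in labelled-deleted libraries and at 90.8, 93.5 and 99.0 CPM in those labelled vehicle. Timp2 stood at 169, 162 and 179.5 CPM against 140.04, 137 and 143 CPM. Neither gene had overlapping arms. The log2 fold change was 0.44 ± 0.04 for Timp1 (edgeR adjusted p of 4.79e-06) and 0.28 ± 0.04 for Timp2 (edgeR adjusted p of 0.000191). Timp3, which is bound to matrix and also inhibits ADAM17 and aggrecanases, had arms that did not overlap by a narrow margin and did not pass (0.14 ± 0.08, edgeR adjusted p of 0.178). Timp4 had 0 to 2 counts.

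Summed over families, the Timp level was 281 ± 11.1 TPM in labelled-deleted libraries and 219 ± 6.40 TPM in those labelled vehicle (SD, n = 3). The Mmp sum was 208 ± 11.1 and 189 ± 8.10 TPM, so the ratio of Timp to Mmp RNA was 1.34, 1.30 and 1.43 in labelled-deleted libraries and 1.16, 1.18 and 1.15 in those labelled vehicle. These ratios did not overlap between arms. Mmp3, Mmp10 and Mmp13 rose within an Mmp sum that is mostly Mmp2 and Mmp14. The Adamts sum was lower in labelled-deleted libraries (73.6 ± 4.89 against 108 ± 2.84 TPM), and Adamts1 held the largest part of it. The Adam sums overlapped (132 ± 8.40 and 131 ± 2.17 TPM), as did the Adamtsl sums (9.79 ± 0.241 and 10.1 ± 0.578 TPM). No test was run on these sums.

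Within each labelled pair there is 1 library per arm and no replicate, so genes were counted by size alone, at least 2-fold with a mean of at least 5 CPM. In the pair labelled fibroblasts 5 of 32 members were higher and 2 lower, against 2.77% and 0.59% of all genes. In the pair labelled lymphoma 4 of 33 members were higher and 3 lower, against 2.79% and 0.69% of all genes. In the pair labelled sarcoma 4 of 32 were higher and 5 lower, against 2.82% and 0.691% of all genes. Mmp3, Mmp13, Adamts6 and Adamts9 were counted as higher, and Adamts1 and Adamts12 as lower, in each of the 3 pairs. Adamts7 was counted in the pair labelled fibroblasts, with a ratio of 2.03, and just missed the limit in the others, at 1.94 and 1.83. Adam33 in the pair labelled fibroblasts (ratio 0.478) and Mmp9 in lymphoma (2.10) missed it only through the added 0.5. Mmp10, at a mean of 3.24 CPM over all libraries, was too scarce to be considered in any pair.

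Levels were also set side by side across the 3 cell type labels within an arm. Among the 32 members with at least 5 CPM, the highest library of an arm exceeded the lowest by a median ratio of 1.09 in each arm. The widest spread was 1.31 for Adamtsl5 among the libraries labelled deleted and 1.55 for Adam1a among those labelled vehicle.

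RefSeq promoter windows, 250 bases before to 50 bases after a start site, were found for 28 of the 46 tested members. The AP-1 motif TGANTCA was present in the windows of 3 of 10 members called higher, 1 of 10 called lower and 0 of 8 not called, against 7.81% of all 32851 windows. The 3 were Mmp3, Mmp10 and Mmp13, where the motif lay 46, 63 and 35 bases before the start, as printed above. The same 3 windows held a match to the TATA box, which was also in 1 lower member, Adamts1, and in 13.6% of all windows. It began 7, 29 and 16 bases before the start in Mmp3, Mmp10 and Mmp13, and 32 in Adamts1. Mmp3, Mmp10 and Mmp13 lie in 1 gene cluster. The windows of Adamts9, Timp2 and Mmp28, which rose as well, held none of the motifs searched.

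The other motifs searched, all on both strands, were GAAANNGAA (an interferon-stimulated response element, in 8.56% of windows), GGANTTNCC (NF-kB, 3.95%) and AGGAAG (ETS factors, 35.4%). The first was found in Mmp13 alone among the tested members, as overlapping matches. The NF-kB letters were found in no window of a tested member. The ETS letters were found in 5 of 10 members called higher, 2 of 10 called lower and 2 of 8 not called. A match describes letters in the window and does not show binding.

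**Figure D4:**
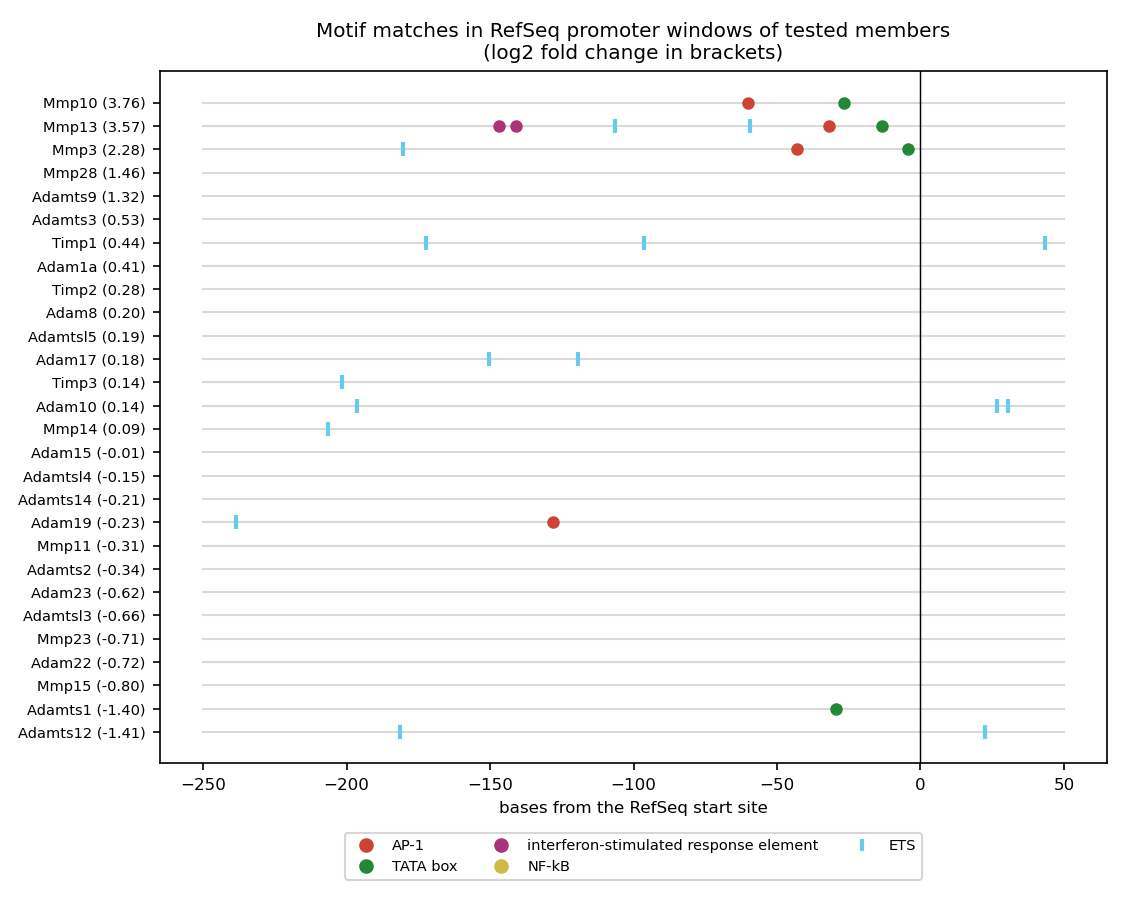
Position of motif matches, in bases from the RefSeq start site, for the 28 tested members with a promoter window, ordered by log2 fold change (in brackets). AP-1 and TATA matches lie together within 63 bases of the start in Mmp10, Mmp13 and Mmp3.

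Genes that work with the members were taken from 5 lists. Of 7 tested genes listed as other inhibitors and clearance receptors, 0 were higher and 5 lower, against 25% and 24.6% of all genes. Their median log2 fold change was -0.24. Reck, a membrane-anchored inhibitor of MMPs and ADAM10, fell from 7.06 ± 0.243 CPM to 3.04 ± 0.465 CPM (SD, n = 3), a log2 fold change of -1.22 ± 0.11. Rtn4rl1 (-0.47), Fetub (-0.24) and Cst3 (-0.18) fell by less. The list is broad, since Cst3 encodes an inhibitor of cysteine proteinases and Rtn4rl1 a Nogo receptor homologue, neither of them a metalloproteinase inhibitor.

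Of 7 tested activators of proenzymes, 2 were higher and 2 lower, against 25% and 24.6% of all genes. Plau, the urokinase that generates plasmin, fell from 83.1 ± 2.96 CPM to 36.4 ± 0.360 CPM (-1.19 ± 0.04), while its receptor gene Plaur rose (0.38 ± 0.05). Pcsk7, a proprotein convertase, rose by 0.20 and Bsg, basigin, an inducer of MMPs, fell by 0.19 on the log2 scale. Of 8 genes for ADAM10 and ADAM17 trafficking cofactors, 1 was higher and 2 lower, against the same shares of all genes. Rhbdf2, whose product iRhom2 carries ADAM17 to the surface, rose from 22.2 ± 0.432 to 33.4 ± 0.675 CPM (0.59 ± 0.05), Rhbdf1 (iRhom1) fell by 0.14 and Tspan17, a partner of ADAM10, fell by 0.50.

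Of 22 tested genes for shed substrates of ADAM10 and ADAM17, 13 were higher and 4 lower, against 25% and 24.6% of all genes. Their median was 0.51. The largest rises were those of the adhesion molecule gene Icam1 (3.70 ± 0.16), the Notch ligand gene Dll1 (3.05 ± 0.22), the chemokine gene Cxcl16 (2.21 ± 0.08) and Btc (2.05 ± 0.43), a ligand of the EGF receptor under 1 CPM. Other EGF receptor ligand genes, Ereg (1.25), Areg (0.80) and Hbegf (0.75), were named after their values were seen. Of 17 matrix substrate genes, 3 were higher and 9 lower, against the same shares of all genes, with a median of -0.22. Col3a1 (-1.33 ± 0.05), Fbn2 (-1.06 ± 0.04) and Dcn (-0.83 ± 0.04) fell and Col2a1 rose (2.47 ± 0.24, from 0.371 to 2.12 CPM), and several of these genes also stand among the fibroblast markers. Versican, the substrate of Adamts1 and Adamts9, fell from 902 ± 33.3 to 728 ± 5.90 CPM (Vcan, -0.31 ± 0.04, chosen after its value was seen).

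**Figure D5:**
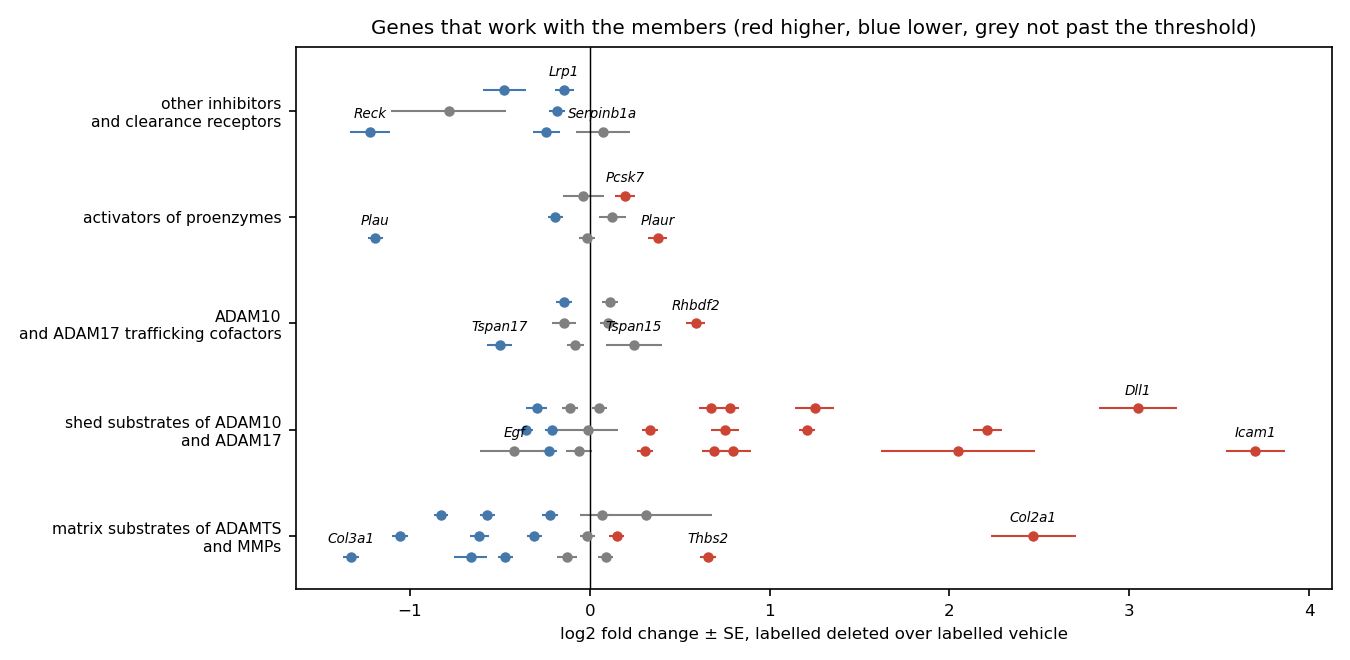
Log2 fold change with its SE for the tested genes of the 5 partner lists, libraries labelled deleted over vehicle. The shed substrates reach 3.70 (Icam1), and the 7 tested genes listed as inhibitors and clearance receptors include 5 lower and 0 higher.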

How the data were processed

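Members, gene lists, motifs and tests were chosen with earlier results of these data known. Libraries were made with a stranded total RNA kit after ribosomal RNA depletion, per the labels' protocols. The deposited files held estimated counts and TPM per transcript, made by the authors. The submitters' processing notes name kallisto 0.43.0 and the GRCm38 build, and the sources used here give neither transcript set nor strand setting. Targets were joined to GENCODE M21, and 1006 of 76055 that matched no gene (0.393% to 0.410% of counts) were left out. Of 178 coding targets of members, 168 (94.4%) had the length of the coding sequence, so their untranslated regions were not counted. Estimated counts were summed per gene and rounded.

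All 15933 genes kept by filterByExpr entered a two-sided quasi-likelihood test in edgeR 4.0.16 over the 6 libraries (TMM scaling, cell type label as block, Benjamini-Hochberg adjustment), leaving 2 residual degrees of freedom. The labelled cell types served as replicates, so the p-values reflect only how these libraries vary, which may be technical. CPM are TMM-scaled. Each SE is the fold change over the square root of F. Pair ratios carry 95% Clopper-Pearson intervals that cover counting error only, and pairs were counted on CPM + 0.5. Levels between genes were the deposited TPM summed over targets of at least 500 bases, a limit chosen after the values were seen because Mmp14 has a short target with unstable TPM. Members averaging 1 CPM or more were described, with every library's value when they passed with an absolute log2 fold change of at least 0.8 or were among the 2 highest of their family by mean deposited TPM. Up to 4 genes per partner list with the largest changes were named. The edgeR test was also run on simulated counts, drawn with a common spread for all genes and no cell type difference. Changes were added only to genes with higher counts, so that run does not bear on the calls of scarce members. Alternatives used DESeq2 1.42.0 and limma 3.58.1 with R 4.3.3. Tables were made in Python 3.11.15 (scipy 1.17.1, numpy 2.4.6, pandas 2.3.3). A search of the protein sequences was not run.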

Additional observations from a re-analysis of the deposited data

How the results depend on the processing

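No p-value exists within a labelled pair, and the 3 labelled pairs supply all of the error. Of the 32 called members, 22 kept call and direction in every alternative that tested them, and 0 changed sign. Over all genes, 3981 were called higher and 3920 lower, against 2541 and 2488 with DESeq2, 2352 and 1552 with limma on log2(TPM + 1), and 2401 and 1589 with limma on log2(TPM + 0.1), which moves the split toward higher calls. With deposited TPM in place of CPM, the members at least 2-fold higher and lower were 1 and 1 in the pair labelled fibroblasts, 2 and 1 in lymphoma, and 1 and 2 in sarcoma, of 21, 22 and 21 members reaching a mean of 5 TPM. Over all genes reaching that mean, 3.76% were higher and 1.18% lower in fibroblasts, 4.33% and 0.853% in lymphoma, and 4.42% and 1.03% in sarcoma. Of the 7, 7 and 9 members counted by CPM, 4, 4 and 6 averaged under 5 TPM and were not considered. Signs that reversed all belonged to members that did not pass. Adam4 had 0.098 without the pair labelled fibroblasts and 0.016 without lymphoma, down to -0.234 without sarcoma. Adam15 had 0.012 with protein-coding genes only, 0.025 and 0.026 with limma, 0.026 without sarcoma and -0.055 without fibroblasts. Adamtsl5 had -0.0067 without fibroblasts and 0.293 without lymphoma. Mmp2 had -0.013 with no low count filter, -0.00029 with a mean of at least 1 CPM, -0.0054 without fibroblasts and -0.0061 without lymphoma. The cause was not tested.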
